A study of Mus musculus and Homo sapiens with 22 samples.

Results

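The genes described here are *ATF4* and 4 genes known to respond to it, *TRIB3*, *ASNS*, *PSAT1* and *SLC7A11*, in RNA sequencing of 2 breast carcinoma cell lines treated with ENMD-2076 or TAK901. They were chosen by name, as the mouse symbols *Atf4*, *Trib3*, *Asns*, *Psat1* and *Slc7a11* in 4T1 cells and as the matching human Ensembl IDs in MDA-MB-231 cells. The IDs were ENSG00000128272 for *ATF4*, ENSG00000101255 for *TRIB3*, ENSG00000070669 for *ASNS*, ENSG00000135069 for *PSAT1* and ENSG00000151012 for *SLC7A11*. That makes 10 of the 81637 gene IDs listed over both lines, 5 in each line, and all 10 passed the filter on low counts. MDA-MB-231 is a human triple-negative breast cancer line and 4T1 a mouse mammary carcinoma line. Both compounds inhibit Aurora kinases, which act in mitosis on centrosomes and on the separation of chromosomes. The groups of MDA-MB-231 cells received 2.5 µM ENMD-2076, 5 µM ENMD-2076, 1 µM TAK901, 2 µM TAK901 or DMSO, the solvent. The groups labelled 4T1 received 1.25 µM ENMD-2076, 2.5 µM ENMD-2076, 1 µM TAK901, 2 µM TAK901 or DMSO. Their libraries fell into 2 sets that did not look like the same cells, as described below. Cells of all groups were plated 24 h before a treatment of 24 h, and each group held 2 libraries, apart from the 4 DMSO libraries of 4T1. The labels do not say that these came from separate cultures, so every p below rests on the spread between libraries alone, and that spread may be technical. In bulk RNA, fewer cells of a kind and less RNA per cell cannot be told apart. The question was how these genes differed from DMSO at each dose in each line.

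The integrated stress response begins with kinases that phosphorylate the translation factor eIF2 when amino acids run short, unfolded protein builds up in the endoplasmic reticulum, haem is lacking or double-stranded RNA is present. General translation then slows while the mRNA of the transcription factor ATF4 is translated better, so that ATF4 protein can rise with little change of its mRNA. ATF4 pairs with C/EBP family proteins on composite elements in DNA and induces genes for amino acid uptake and synthesis, tRNA charging and redox balance. Many tumour cells depend on this programme for serine, asparagine and cystine. These libraries measured RNA, so eIF2 phosphorylation and ATF4 protein were not analysed here.

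The gene counts of a library summed to 13.4 to 24.0 M reads in MDA-MB-231 and to 14.4 to 30.9 M reads in 4T1, except for the libraries of 4T1 with 2 µM TAK901, which held 6.00 and 3.75 M reads. The libraries labelled 4T1 fell into 2 sets that did not look like the same cells. Reads of 4 Y-linked genes were 0 in all 6 libraries of the set with ENMD-2076 and DMSO 1 and 2, and summed to 1004 to 7021 in each library of the set with TAK901 and DMSO 3 and 4. *Hnf4a*, known from liver and gut cells as a transcription factor, stood at 0 CPM in the set with ENMD-2076 and at 206 to 249 CPM in the other. Every 4T1 group was therefore set against the DMSO libraries of its own set. All 6 epithelial markers were detected in every 4T1 library, where they summed to 3041 to 5944 CPM, while the 5 haematopoietic markers summed to 0 to 1.51 CPM. The headers in the deposited 4T1 tables with ENMD-2076 name no compound and give the same dose, 10 µM, for both groups, and the growth protocol gives other doses than the treatment labels. The doses of the treatment labels are used throughout, and every comparison of 2.5 µM with 1.25 µM in 4T1 rests on them.

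In mouse, 3 of the 5 genes carry the 8 letters TGATGNAA, the core of the element that ATF4 and C/EBP proteins share, in either direction within the 250 bases before and 50 bases after the annotated start. Over all promoters of the same length in the RefSeq table, 1304 of 32851 windows held it, or 3.97%. The windows of the 3 genes are shown because they differ in how many copies they hold and where. Sequences are from RefSeq on GRCm38.p6, written 5′ to 3′ along the gene's own strand, with each match in capitals.
Slc7a11, chr3:50443614-50443713, minus strand, bases -100 to -1: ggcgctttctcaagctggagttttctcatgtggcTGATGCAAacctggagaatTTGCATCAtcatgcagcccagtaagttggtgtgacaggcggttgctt
Asns, chr6:7693210-7693309, minus strand, bases -100 to -1: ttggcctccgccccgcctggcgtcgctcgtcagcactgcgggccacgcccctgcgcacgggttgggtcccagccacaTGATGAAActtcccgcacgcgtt
Trib3, chr2:152344028-152344057, minus strand, bases 4 to 33: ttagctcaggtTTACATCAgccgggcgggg
*Slc7a11* held 2 copies facing each other, at base -66 and, on the opposite strand (TTNCATCA), at base -47. *Asns* held 1 copy at base -23, and *Trib3* 1 copy on the opposite strand at base 15, after the start. Of the 75 genes of the 7 lists described below, 59 had a window and 15 of these held the letters. The other genes had no window, so this count covers part of the lists only, and it was not tested. Of the genes with a window, 0 of 12 in the endoplasmic reticulum list and 0 of 7 in the NRF2 list held them. With the letters in 3.97% of all windows, so few genes can hold none without differing from promoters at large. The window of *Atf4* and both windows of *Psat1* held none, which says only that these letters are not there. Among other targets, *Chac1* (a glutathione-degrading enzyme) and *Pycr1* (the last enzyme of proline synthesis) were chosen for display after their values were seen. They were among the largest falls of their lists with 1.25 µM ENMD-2076 and also held the letters. The windows of *Stc2*, *Mthfd2* and *Atf5*, each the largest fall of its list at that dose, held none.
Chac1, chr2:119351038-119351067, plus strand, bases -204 to -175: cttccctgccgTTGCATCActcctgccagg
Pycr1, chr11:120643833-120643862, minus strand, bases -114 to -85: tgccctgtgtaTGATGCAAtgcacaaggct

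In 4T1 cells treated with 1.25 µM ENMD-2076 all 5 genes fell, each in both libraries and by 3.14 to 22.2 times. Of all 15375 genes tested, 45.9% differed from DMSO, 22.6% higher and 23.2% lower, so that a call alone says little here and the sizes matter. The median log2 fold change of the 5 genes was -3.18, and that of all genes tested 0.00. The differences were tested with edgeR's quasi-likelihood test with Benjamini-Hochberg adjustment over all genes of the line, as are all those below. Levels are counts scaled to library size by TMM, given as CPM, and since CPM are not corrected for gene length they are compared between groups and not between genes.

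*Atf4*, the transcription factor itself (chr15:80255184-80257541, plus strand), stood at 121 and 118 CPM with 1.25 µM ENMD-2076, against 385 and 365 CPM in DMSO 1 and 2. Its log2 fold change was -1.65 (SE 0.06, adjusted p = 8.1e-21). *Trib3* (chr2:152337422-152344032, minus strand) encodes a pseudokinase that ATF4 induces and that in turn restrains ATF4 activity. It had 6.19 and 5.70 CPM with 1.25 µM ENMD-2076, against 129.6 and 132 CPM in DMSO. Its log2 fold change was -4.47 (SE 0.12, adjusted p = 7.3e-24), and it was the member with the largest fall.

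*Asns* (chr6:7675169-7693254, minus strand), which encodes asparagine synthetase, had 38.1 and 39.7 CPM with 1.25 µM, against 403 and 387 CPM in DMSO. Its log2 fold change was -3.34 (SE 0.08, adjusted p = 3.3e-25). *Psat1* (chr19:15904678-15947337, minus strand), the aminotransferase of the second step of serine synthesis, had 75.1 and 77.9 CPM with 1.25 µM, against 498 and 489 CPM in DMSO. Its log2 fold change was -2.69 (SE 0.06, adjusted p = 4.0e-25). *Slc7a11* (chr3:49892526-50443614, minus strand) encodes the cystine importer xCT, which supplies cysteine for glutathione. It had 7.15 and 6.38 CPM with 1.25 µM, against 64.2 and 56.2 CPM in DMSO (log2 fold change -3.18, SE 0.10, adjusted p = 8.0e-22). For each of the 5 genes both treated libraries lay below both DMSO libraries, but how many of all genes lay so was not counted. Gene positions are on GRCm38 from GENCODE release M21.

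At 2.5 µM ENMD-2076 the 5 genes no longer moved together. Of all genes tested 70.3% differed from DMSO, 33.2% higher and 37.1% lower, and of the 5 genes 4 fell and *Psat1* rose. *Trib3* stood at 2.90 and 4.25 CPM with 2.5 µM, against 129.6 and 132 CPM in DMSO (log2 fold change -5.23, SE 0.14, adjusted p = 4.0e-24). These low levels rest on 46 and 48 reads. *Slc7a11* stood at 2.40 and 2.57 CPM with 2.5 µM, on 38 and 29 reads, against 64.2 and 56.2 CPM in DMSO (log2 fold change -4.61, SE 0.14, adjusted p = 6.2e-23). Both were further below DMSO than at the lower dose.

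*Atf4* had 126 and 125 CPM with 2.5 µM, against 385 and 365 CPM in DMSO (log2 fold change -1.58, SE 0.06, adjusted p = 1.9e-20). *Asns* had 135 and 115 CPM with 2.5 µM, against 403 and 387 CPM in DMSO (log2 fold change -1.66, SE 0.07, adjusted p = 2.6e-19). Both genes stayed below DMSO 1 and 2 in each library. *Psat1* had 663 and 603 CPM with 2.5 µM, against 498 and 489 CPM in DMSO (log2 fold change 0.36, SE 0.06, adjusted p = 1.2e-06). This rise depended on the scaling. With libraries scaled by their total count the log2 fold change of *Psat1* was 0.00 (adjusted p = 1.0) at 507 and 472 CPM with 2.5 µM, against 496 and 483 CPM in DMSO. TMM factors were 0.766 and 0.784 in the 2.5 µM libraries and 0.989 to 1.12 in the other 4T1 libraries. Mitochondrially encoded genes took 8.83 and 8.72% of reads with 2.5 µM, against 3.92 and 4.13% in DMSO. With 1.25 µM their share was 6.21 and 7.09%. *Gm26917*, a transcript with sequence like ribosomal RNA, stood at 2185 and 2004 CPM of the total count with 2.5 µM, against 36.5 and 29.9 in DMSO. The part of these shifts in the results was not tested. Total-count scaling moved the median of all genes tested to -0.37 and the split of calls to 3760 higher and 7247 lower, beside 5111 higher and 5705 lower with TMM.

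**Figure D1:**
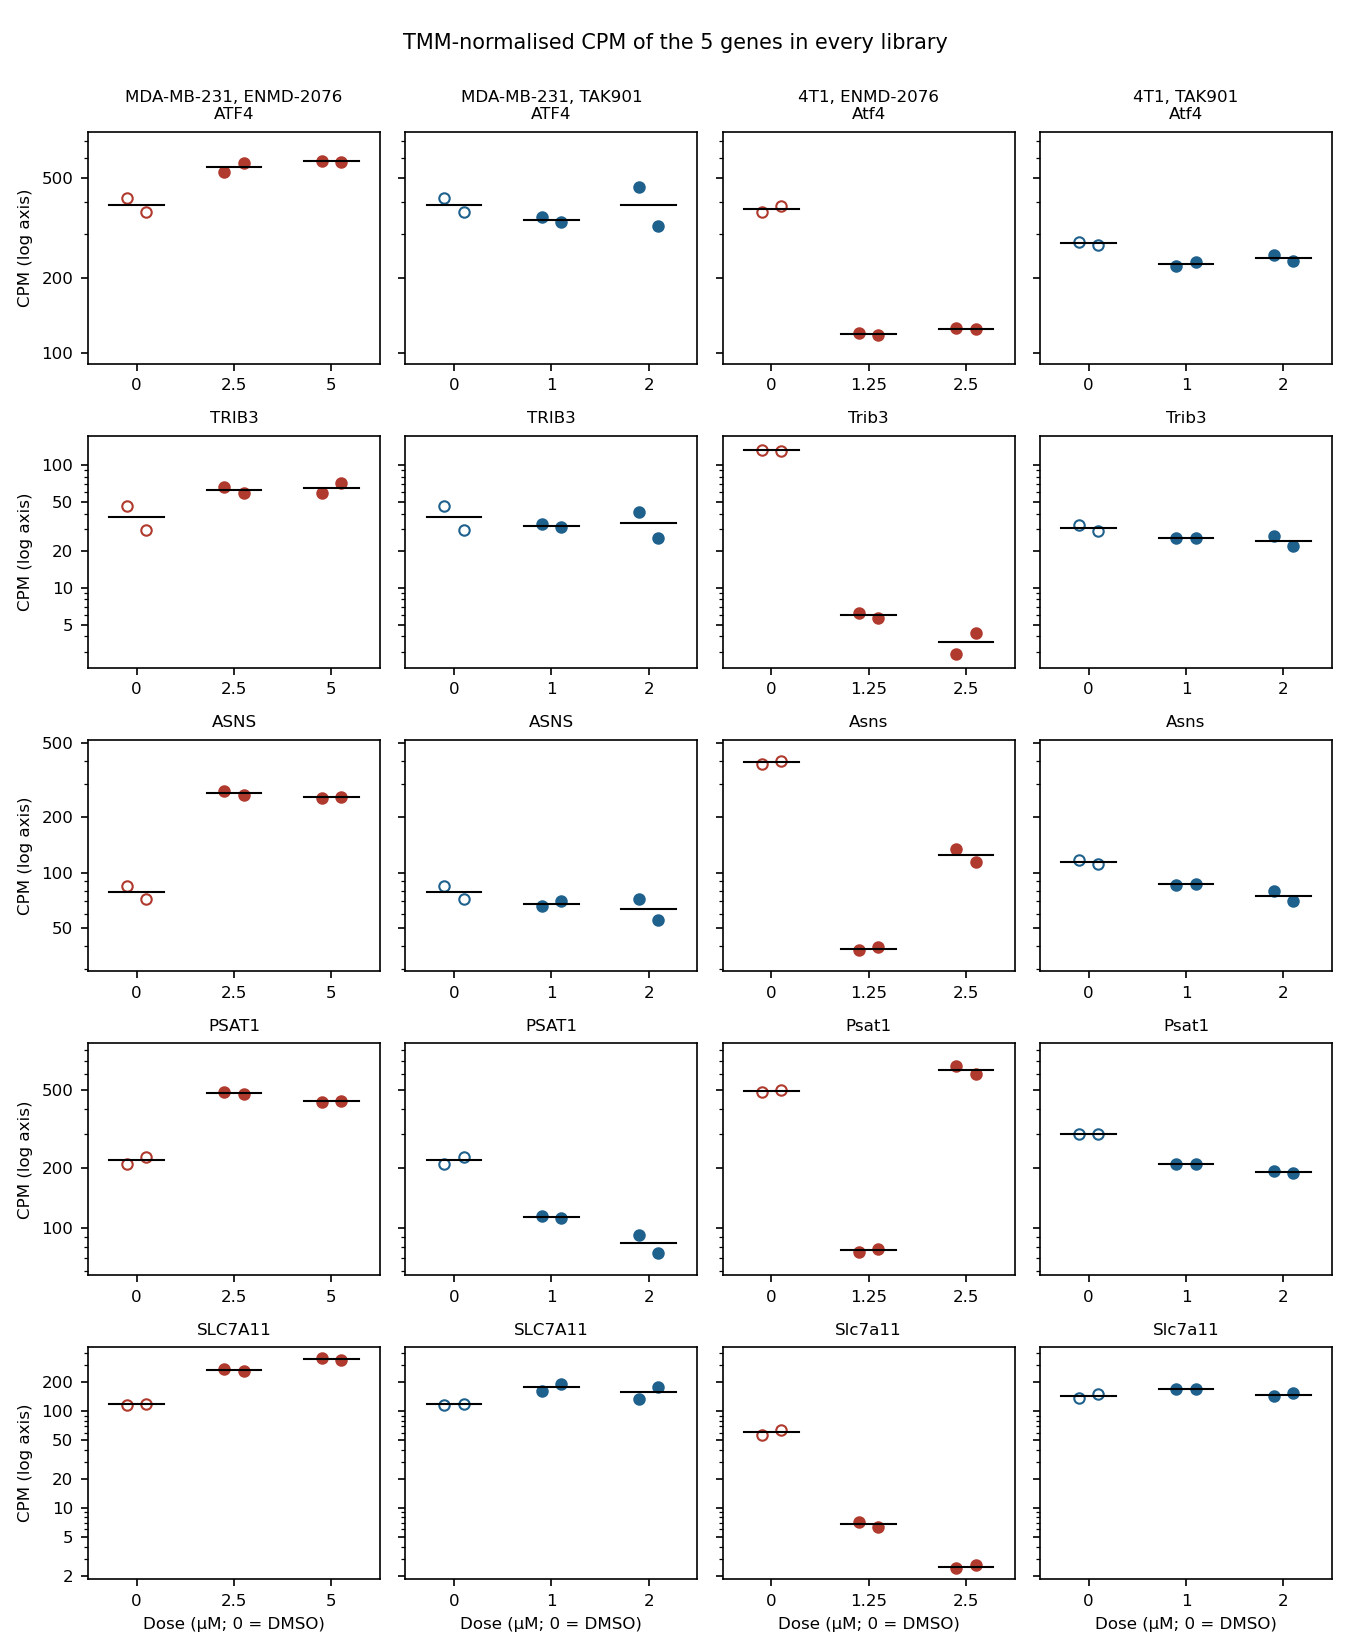
TMM-normalised CPM (log axis, shared along each row) of the 5 genes in every library, by dose in µM with DMSO at 0; points are single libraries and bars group means. The 2.5 µM ENMD-2076 libraries of 4T1 stand at 2.90 and 4.25 CPM for *Trib3* and at 663 and 603 CPM for *Psat1*, whose levels at 1.25 µM are 75.1 and 77.9 CPM.

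The doses were compared directly to see which of the 5 genes differed between them. With 2.5 µM, against 1.25 µM, 73.3% of all genes tested differed, 35.4% higher and 37.8% lower, and of the 5 genes 2 rose and 2 fell. *Psat1* was 8.26 times higher with 2.5 µM, at 663 and 603 CPM, against 75.1 and 77.9 CPM with 1.25 µM (log2 fold change 3.05, SE 0.06, adjusted p = 5.6e-27). *Asns* was 3.21 times higher with 2.5 µM (log2 fold change 1.68, SE 0.08, adjusted p = 1.3e-18). *Slc7a11* fell by 1.43 on the log2 scale (SE 0.19, adjusted p = 6.1e-08). *Trib3* fell by 0.76 (SE 0.19, adjusted p = 6.2e-04), a call that rested on 1 library: without replicate 1 at 2.5 µM its log2 fold change was -0.44 (adjusted p = 0.0910). It was also not past the threshold when the fit held these groups alone (log2 fold change -0.71, adjusted p = 0.0623). *Atf4* mRNA did not pass the test between the doses, with a log2 fold change of 0.07 and a 95% interval of -0.05 to 0.19. Its direction depended on the scaling, as DESeq2 size factors gave 0.22 (adjusted p = 0.00206) and total-count scaling gave -0.31 (adjusted p = 3.2e-05), moving the median of all genes to -0.38.

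The wider programme was followed in 4T1 through 7 lists with 75 further genes, of which 73 were tested. With 1.25 µM ENMD-2076, 57 of the 73 fell and 6 rose, with a median log2 fold change of -1.16, against 0.00 for all genes tested, of which 23.2% fell. Serine, glycine and one-carbon synthesis fell in all 7 of its genes (median -2.51). *Mthfd2*, the mitochondrial folate dehydrogenase, led it with 6.81 and 8.37 CPM with 1.25 µM, against 133 and 125 CPM in DMSO (log2 fold change -4.05, SE 0.10, adjusted p = 8.5e-25). *Aldh1l2*, a mitochondrial formyltetrahydrofolate dehydrogenase, fell by 2.75 on the log2 scale, at 0.138 and 0.483 CPM with 1.25 µM, against 2.87 and 2.18 CPM in DMSO. *Bcat1* and *Gdf15* are counted among the 73 through the set with TAK901. In the set with ENMD-2076 *Bcat1* was at 0 CPM in all 6 libraries and *Gdf15* at 0.378 CPM or less, so neither can show a change there. *Cbs*, another gene of amino acid synthesis, was at 0.973 CPM or less in these libraries. Its rise with 2.5 µM (2.95) is counted below and rests on few reads. Of 9 genes of amino acid synthesis and conversion, *Bcat1* included, 6 fell, among them *Pycr1* (-3.62) and *Cth*, the cystathionine lyase that makes cysteine (-3.33). *Glul*, glutamine synthetase, rose (1.35).

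Amino acid transporters fell in 8 of 9 genes tested, with no rise (median -0.91). Over all genes tested 23.2% fell and 22.6% rose with 1.25 µM. *Slc7a5*, the large neutral amino acid exchanger LAT1, had 42.9 and 38.2 CPM with 1.25 µM, against 206 and 194 CPM in DMSO (log2 fold change -2.31, SE 0.07, adjusted p = 1.2e-22). *Slc1a5*, the glutamine transporter ASCT2, fell by 2.12. Of the 20 cytosolic aminoacyl-tRNA synthetases, which charge tRNAs with amino acids, 18 fell and none rose (median -1.07), led by *Cars* (-2.37) and *Aars* (-1.63). Other known ATF4 targets fell in 8 of 10 genes, with *Stc2*, a secreted glycoprotein, at -3.53 and *Chac1* at -3.32. *Chac1* had 5.57 and 6.18 CPM with 1.25 µM, against 60.7 and 58.5 CPM in DMSO.

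Among 8 partners of ATF4 and related stress factors 6 fell, at a dose where 23.2% of all genes tested fell and 22.6% rose. The transcription factors *Atf5* (-2.77) and *Ddit3* (-2.28), which encodes CHOP, fell most, and *Nupr1*, a small stress-induced chromatin protein, rose (0.99). The list of eIF2 kinases and phosphatase subunits was split, 4 higher and 4 lower of 10 (median -0.05). The kinase genes *Eif2ak2* (0.73), for the sensor of double-stranded RNA, and *Eif2ak1* (0.54), for the haem-regulated kinase, rose. *Ppp1r15a* (-1.41), the inducible phosphatase subunit GADD34, and *Ppp1r15b* (-0.70), its constitutive relative, fell.

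A pair of lists outside the ATF4 branch was set beside these, again with 22.6% of all genes tested higher and 23.2% lower. Of 14 endoplasmic reticulum chaperones and genes of the XBP1 arm 2 rose with 1.25 µM, *Calr* (1.11) and *Dnajb11* (0.67), and 4 fell by 0.40 or less on the log2 scale (median -0.12). Of 10 targets of NRF2, the oxidative stress factor that is also known to induce *Slc7a11*, 4 rose and 3 fell (median 0.18), with *Prdx1*, a peroxiredoxin, at 0.71. *Osgin1*, an oxidative stress gene, fell most, to 20.1 and 16.4 CPM with 1.25 µM, against 70.3 and 72.6 CPM in DMSO (adjusted p = 1.2e-16), and *Gclc*, a subunit of the enzyme that starts glutathione synthesis, fell by 0.35. Markers of cell state moved at this dose too. The 4 mesenchymal markers summed to 3215 to 3360 CPM with 1.25 µM, against 7462 to 7484 CPM in DMSO. Of these 3 fell, with *Vim* at -2.33 and *Cd44* at -1.49. The other, *Zeb1*, rose (1.43) at low levels, 1.10 and 0.837 CPM with 1.25 µM, against 0.324 and 0.354 CPM in DMSO. The 6 epithelial markers summed to 3985 to 4164 CPM with 1.25 µM, against 4198 to 4287 CPM in DMSO. Among them *Cdh1* (0.90) and *Krt7* (0.20) rose, and *Krt18* (-0.70) and *Krt8* (-0.16) fell. The part of these markers in the results was not tested.

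**Figure D2:**
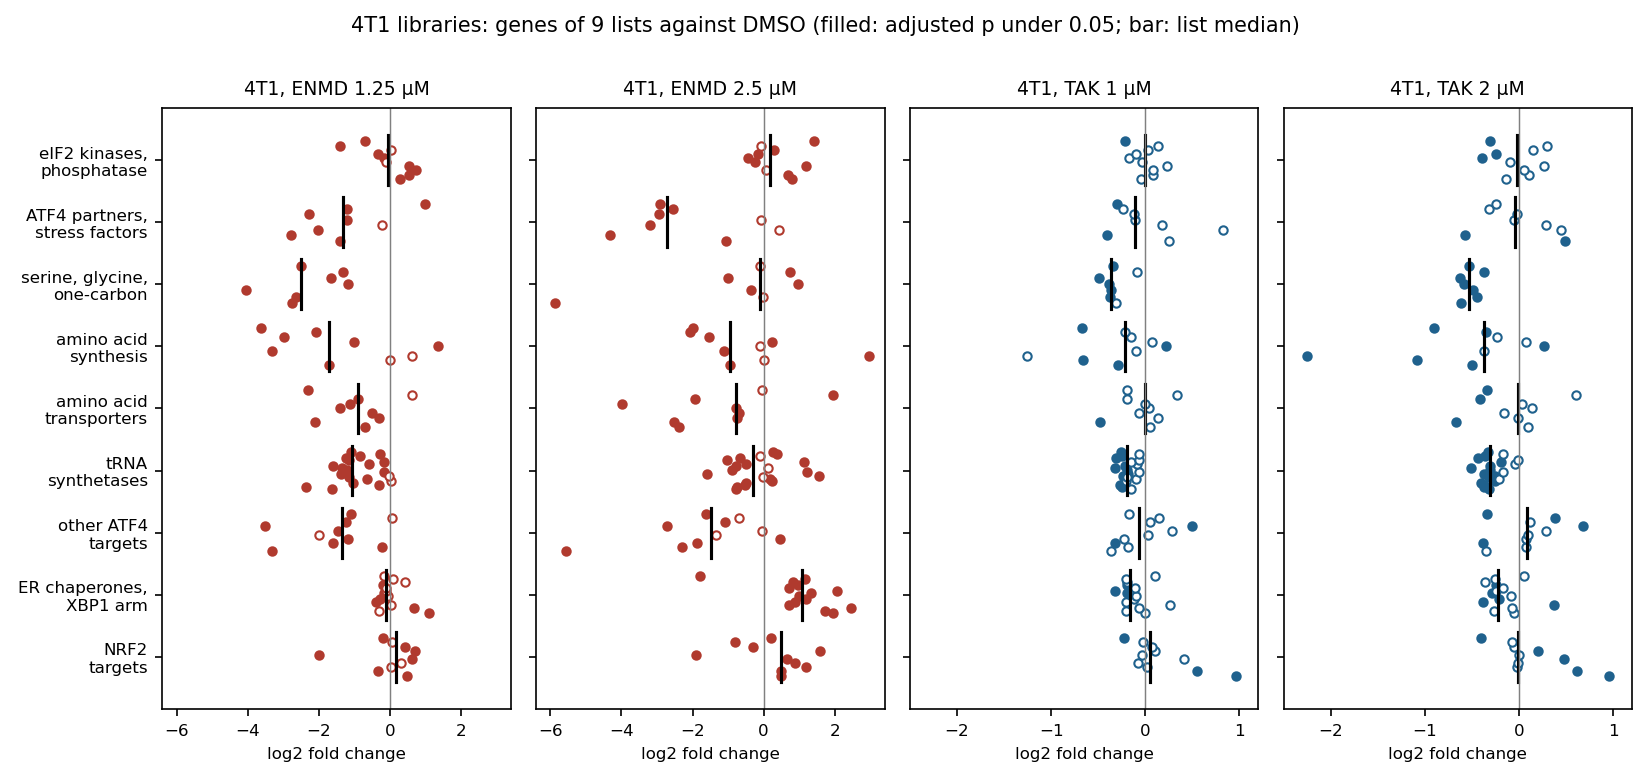
Log2 fold change against DMSO of each gene of the 9 lists in 4T1 (x axis; its range is shared by the ENMD-2076 panels and, separately, by the TAK901 panels); filled points passed an adjusted p of 0.05 and bars are list medians. With 1.25 µM ENMD-2076 the one-carbon list lies wholly below 0 with a median of -2.51, and with 2.5 µM its median is -0.11.

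With 2.5 µM ENMD-2076 the 7 lists diverged, with 40 of 73 genes lower than in DMSO and 18 higher (median -0.51). Over all genes tested 37.1% were lower and 33.2% higher. Total-count scaling gave 53 lower and 11 higher (median -0.86). The ATF4 partners and stress factors were the lowest list, with 6 of 8 lower and none higher (median -2.73). *Atf5* had 8.53 and 6.90 CPM with 2.5 µM, against 160.4 and 152 CPM in DMSO (log2 fold change -4.32, SE 0.11, adjusted p = 2.2e-24). *Cebpb*, a C/EBP factor that can pair with ATF4, fell by 3.18, to 9.54 and 12.2 CPM with 2.5 µM, against 96.5 and 98.3 CPM in DMSO. *Chac1* fell by 5.56, and the glycine transporter *Slc6a9* fell by 3.98.

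In the one-carbon list 2 genes rose and 3 fell. Since 33.2% of all genes tested rose and 37.1% fell, nothing particular to the list is read from these counts. *Phgdh*, the first enzyme of serine synthesis and so the step before *Psat1*, had 746 and 699 CPM with 2.5 µM, against 373 and 363 CPM in DMSO (log2 fold change 0.97, SE 0.06, adjusted p = 9.3e-15). *Psph*, the step after *Psat1*, had 35.7 and 38.8 CPM with 2.5 µM, against 76.6 and 72.9 CPM in DMSO (log2 fold change -1.01, SE 0.09, adjusted p = 2.1e-11). The 3 enzymes of the serine pathway thus did not move as 1 block at this dose. *Aldh1l2* had 0 and 0.0885 CPM with 2.5 µM, on at most 1 read, against 2.87 and 2.18 CPM in DMSO.

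Of the tRNA synthetases 10 fell and 7 rose with 2.5 µM, and total-count scaling made that 14 lower and 3 higher. Since 37.1% of all genes fell and 33.2% rose, nothing particular to the synthetases is read from this split. *Hars* (1.57) and *Kars* (1.21) rose most, and *Iars* (-1.59) and *Sars* (-1.02) fell most. Among the eIF2 genes *Ppp1r15b* rose to 281 and 294 CPM with 2.5 µM, against 117 and 98.8 CPM in DMSO (log2 fold change 1.41). *Eif2ak3*, the kinase PERK that senses unfolded protein, rose to 85.5 and 79.4 CPM with 2.5 µM, against 37.6 and 34.2 CPM in DMSO. The endoplasmic reticulum list rose in 13 of 14 genes (median 1.08, and 0.72 with total-count scaling, also 13 of 14). *Dnajb11*, a co-chaperone, had 266 and 269.6 CPM with 2.5 µM, against 50.4 and 47.9 CPM in DMSO. *Manf*, a secreted factor of the same response, rose by 2.06, and *Xbp1* itself fell by 1.80. NRF2 targets were 7 higher and 3 lower (median 0.48), but 3 higher and 4 lower with total-count scaling (median 0.12).

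Between the doses 44 of the 73 genes of the 7 lists were higher with 2.5 µM than with 1.25 µM and 21 lower (median 0.57). Total-count scaling gave 35 higher and 30 lower (median 0.19), and over all genes it gave 4177 higher and 7343 lower, beside 5448 higher and 5816 lower with TMM. The one-carbon list rose in 6 of 7 genes (median 2.16), with *Mthfd2* at 3.70 and *Mthfd1l* at 2.62. *Mthfd2* stood at 104 and 98.2 CPM with 2.5 µM, against 6.81 and 8.37 CPM with 1.25 µM. The synthetases rose in 17 of 20 genes and fell in 2 (median 0.79), or 14 and 5 with total-count scaling (median 0.41). *Slc7a5* rose by 2.28. In the other direction *Nupr1* fell by 3.90, *Cebpb* fell by 2.97, *Slc6a9* fell by 2.86 and *Chac1* fell by 2.24. Endothelial markers also differed. The 4 of them summed to 3.47 to 5.04 CPM with 2.5 µM, against 0 to 0.413 CPM with 1.25 µM and 0.530 to 0.649 CPM in DMSO, and *Cdh5* was at 0 in all 6 libraries. Epithelial markers summed to 3041 to 3145 CPM with 2.5 µM, against 4198 to 4287 CPM in DMSO. Mesenchymal markers summed to 3617 to 3627 CPM with 2.5 µM, against 7462 to 7484 CPM in DMSO. Their part in the results was not tested.

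**Figure D3:**
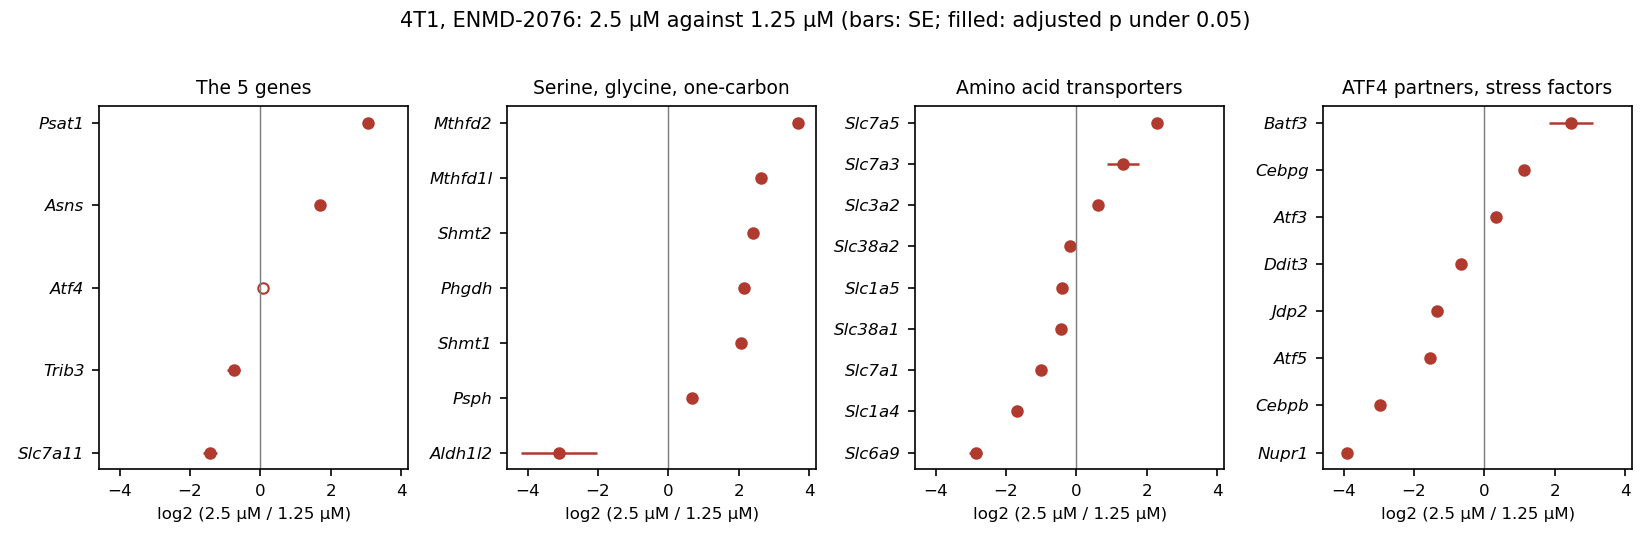
Log2 ratio of 2.5 µM to 1.25 µM ENMD-2076 in 4T1 (x axis) for the 5 genes and 3 lists; bars are SE, and filled points passed an adjusted p of 0.05. *Psat1* (3.05), *Asns* (1.68) and most one-carbon genes lie to the right of 0, and *Slc7a11* (-1.43) and *Cebpb* (-2.97) to the left.

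In MDA-MB-231 cells the genes that passed with ENMD-2076 were all higher than in DMSO. With 2.5 µM, 3 of the 5 genes rose and none fell, where 0.607% of the 14826 genes tested differed from DMSO, 0.519% higher and 0.0877% lower. With 5 µM, 4 of the 5 rose and none fell, where 4.89% of genes differed, 2.7% higher and 2.19% lower. The median log2 fold change of the 5 genes was 1.14 with 2.5 µM and 0.99 with 5 µM, against 0.00 for all genes tested at both doses. For all 5 genes, at both doses, both treated libraries lay above both DMSO libraries. How many of all genes lay so was not counted, so this adds nothing to the calls.

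*ASNS* rose most. It had 277 and 264 CPM with 2.5 µM ENMD-2076, against 84.5 and 72.1 CPM in DMSO (log2 fold change 1.79, SE 0.13, adjusted p = 1.8e-05). With 5 µM it had 254 and 257 CPM (log2 fold change 1.71, SE 0.13, adjusted p = 2.0e-05). *PSAT1* had 489.8 and 477 CPM with 2.5 µM, against 211 and 228 CPM in DMSO (log2 fold change 1.14, SE 0.12, adjusted p = 3.0e-04). It had 436 and 438 CPM with 5 µM (log2 fold change 0.99, SE 0.12, adjusted p = 4.5e-04). *ASNS* and *PSAT1* thus lay above DMSO by similar amounts at both doses.

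*SLC7A11* had 269 and 258 CPM with 2.5 µM, against 116 and 119.7 CPM in DMSO (log2 fold change 1.16, SE 0.14, adjusted p = 0.00126). It had 351 and 337 CPM with 5 µM (log2 fold change 1.54, SE 0.14, adjusted p = 8.4e-05). *ATF4* had 529 and 574 CPM with 2.5 µM, against 414 and 367 CPM in DMSO, a log2 fold change of 0.50 that did not pass (SE 0.15, adjusted p = 0.174). With 5 µM it had 587 and 579.8 CPM and rose by 0.58 (SE 0.15, adjusted p = 0.0372). That call was lost on leaving out any 1 of 8 of the 10 libraries, with adjusted p from 0.0641 to 0.240 and a log2 fold change from 0.49 to 0.67 over all 10 left out. *TRIB3* had 66.3 and 58.9 CPM with 2.5 µM, against 46.2 and 29.2 CPM in DMSO (log2 fold change 0.74, SE 0.23, adjusted p = 0.194). With 5 µM it had 58.3 and 70.8 CPM (log2 fold change 0.78, SE 0.23, adjusted p = 0.0637). At 5 µM it passed with total-count scaling (adjusted p = 0.0418), without the filter (1.4e-04), with DESeq2 (0.0180) and with only the groups compared (8.0e-06). The DMSO libraries of *TRIB3* lay far apart from each other, and leaving out 1 of them moved its log2 fold change over the ranges 0.44 to 1.10 at 2.5 µM and 0.48 to 1.15 at 5 µM.

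The 2 MDA-MB-231 libraries with 2 µM TAK901 differed from each other more than those of any other group, with a chi-square per degree of freedom of 54.2, and the spread is shared over the line. Without both of them all 5 genes rose with 2.5 µM ENMD-2076, including *TRIB3* (log2 fold change 0.74, adjusted p = 0.00120), while 6.59% of all genes then differed. The calls over all genes were 468 higher and 485 lower without them, beside 77 higher and 13 lower with them. With 5 µM, too, all 5 genes rose without them, where 17.0% of all genes differed.

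Between 5 µM and 2.5 µM none of the 5 genes passed the test in MDA-MB-231. With edgeR 2 of all genes tested were called, or 0.0135%, of which 0.00674% higher and 0.00674% lower, with 804 at an unadjusted p under 0.05, and DESeq2 called 6. This number depended on the fit: edgeR called 707 genes (4.96%) with only these groups fitted, and 59 (0.408%) without both TAK901 2 µM libraries. *SLC7A11* had a log2 fold change of 0.38 between these doses (95% interval 0.10 to 0.67, adjusted p = 0.858). For *ATF4* the interval was -0.23 to 0.39, for *TRIB3* -0.43 to 0.52, for *ASNS* -0.36 to 0.19 and for *PSAT1* -0.39 to 0.10.

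**Figure D4:**
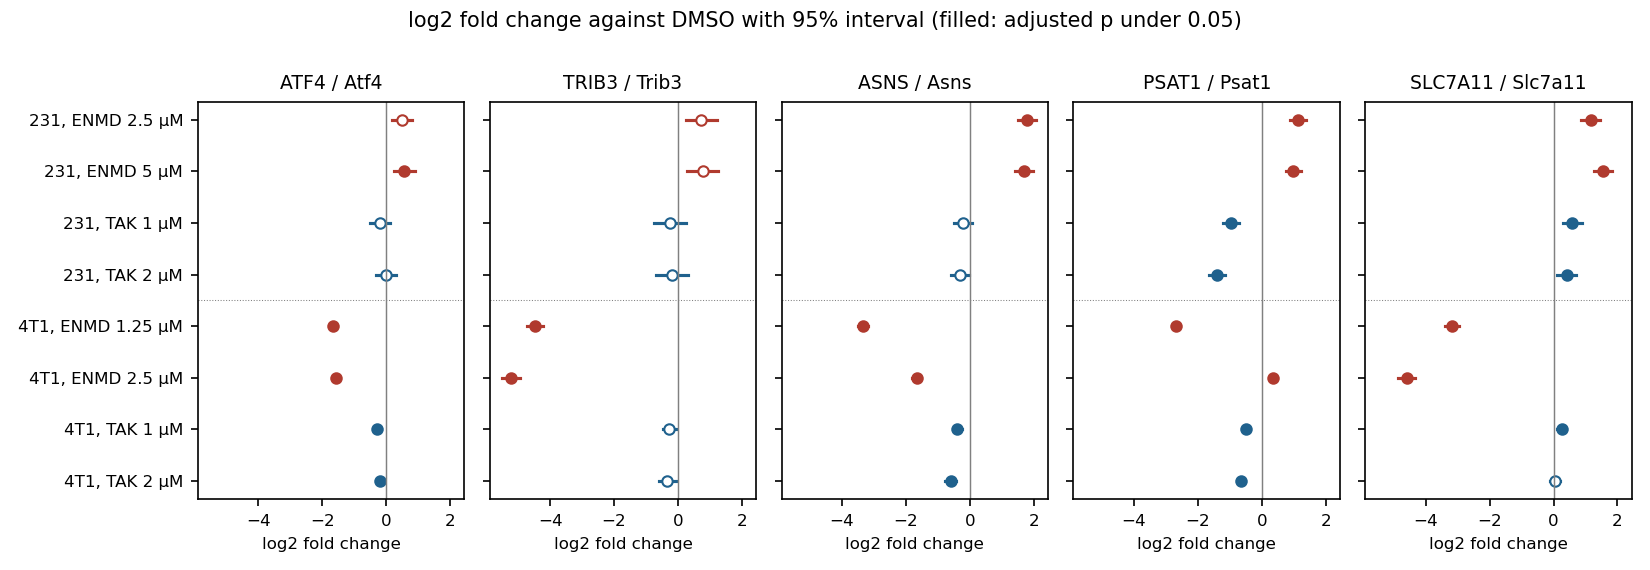
Log2 fold change against DMSO (x axis) with its 95% interval for each gene, for MDA-MB-231 (231, above the dotted line) and 4T1 (below it); filled points passed an adjusted p of 0.05. With 2.5 µM ENMD-2076 *SLC7A11* lies at 1.16 in MDA-MB-231 and *Slc7a11* at -4.61 in 4T1, and *PSAT1* lies at 0.95 or more below 0 with both TAK901 doses in MDA-MB-231.

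TAK901 split the 5 genes in MDA-MB-231. With 1 µM *PSAT1* fell and *SLC7A11* rose, where 13.9% of all genes differed from DMSO, 6.46% higher and 7.47% lower. With 2 µM *PSAT1* again fell and *SLC7A11* rose, where 31.2% differed, 15.2% higher and 16.0% lower. *PSAT1* had 114 and 112 CPM with 1 µM, against 211 and 228 CPM in DMSO (log2 fold change -0.95, SE 0.12, adjusted p = 2.3e-04). With 2 µM it had 91.8 and 74.5 CPM (log2 fold change -1.40, SE 0.12, adjusted p = 2.3e-06). Both doses lay below both DMSO libraries.

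*SLC7A11* had 161 and 193 CPM with 1 µM TAK901, against 116 and 119.7 CPM in DMSO (log2 fold change 0.58, SE 0.14, adjusted p = 0.0120). With 2 µM it had 135 and 178 CPM (log2 fold change 0.41, SE 0.14, adjusted p = 0.0343). Both calls were unstable. At 1 µM the call was lost without either DMSO library or without replicate 2 at 1 µM (adjusted p 0.0748 to 0.150). At 2 µM it was lost without any 1 of 7 libraries (adjusted p 0.0578 to 0.190), with a log2 fold change of 0.18 without replicate 2 at 2 µM.

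*ATF4*, *TRIB3* and *ASNS* did not pass with TAK901. *ASNS* had 66.1 and 70.2 CPM with 1 µM and 72.0 and 55.8 CPM with 2 µM, against 84.5 and 72.1 CPM in DMSO (log2 fold change -0.20 with an interval of -0.48 to 0.08, and -0.29 with an interval of -0.58 to -0.01). *ATF4* had 349.9 and 333 CPM with 1 µM and 461 and 322 CPM with 2 µM, against 414 and 367 CPM in DMSO. Its log2 fold change was -0.19 at 1 µM (interval -0.51 to 0.12) and 0.00 at 2 µM (interval -0.31 to 0.31). *TRIB3* had 33.0 and 30.8 CPM with 1 µM and 41.5 and 25.1 CPM with 2 µM, against 46.2 and 29.2 CPM in DMSO. Its log2 fold change was -0.24 at 1 µM (interval -0.73 to 0.26) and -0.18 at 2 µM (interval -0.67 to 0.31). At 2 µM 1 library decided what was called: without replicate 1 all 5 genes passed, 4 lower and 1 higher, with *ATF4* at -0.28 (adjusted p = 0.0163). Of all genes, 33.2% then differed, 15.1% higher and 18.1% lower. That library is the higher of the pair for both *ATF4* and *TRIB3*. Between 2 µM and 1 µM none passed, where 3.74% of all genes differed, 1.09% higher and 2.66% lower (3128 at an unadjusted p under 0.05, and 974 called by DESeq2). *PSAT1* came nearest, at -0.45 (adjusted p = 0.0506).

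In the libraries labelled 4T1, TAK901 gave small differences from DMSO 3 and 4. This set did not look like the same cells as the set with ENMD-2076, so the compounds are not compared here. With 1 µM, 3 of the 5 genes fell and 1 rose, where 9.14% of all genes differed, 3.97% higher and 5.17% lower. With 2 µM, 3 fell and none rose, where 14.9% differed, 5.63% higher and 9.28% lower. These shares depend on the spread shared with the ENMD-2076 set. In a fit of the TAK901 set alone, 3042 of 14505 genes (21.0%) differed with 1 µM and 3377 (23.3%) with 2 µM. *Psat1* had 212 and 211 CPM with 1 µM and 194 and 189 CPM with 2 µM, against 299.7 and 299 CPM in DMSO. Its log2 fold changes were -0.50 (SE 0.06, adjusted p = 6.1e-07) and -0.65 (SE 0.06, adjusted p = 1.4e-08). *Asns* had 85.5 and 87.3 CPM with 1 µM and 79.3 and 69.9 CPM with 2 µM, against 117 and 111 CPM in DMSO. It fell by 0.40 (SE 0.07, adjusted p = 2.9e-04) and by 0.60 (SE 0.08, adjusted p = 4.8e-06).

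*Atf4* had 223 and 232 CPM with 1 µM and 248 and 234 CPM with 2 µM, against 279 and 271 CPM in DMSO. Its log2 fold changes were -0.27 (SE 0.06, adjusted p = 0.00164) and -0.19 (SE 0.06, adjusted p = 0.0338). At 1 µM the call was lost without DMSO 3 (adjusted p = 0.0619) or without replicate 1 at 1 µM (adjusted p = 0.0647). At 2 µM it was lost with DESeq2 size factors (-0.16, adjusted p = 0.0873), with total-count scaling (-0.13, adjusted p = 0.165) and on leaving out any 1 of 6 libraries. *Slc7a11* rose with 1 µM, at 169.9 and 169 CPM, against 136 and 149 CPM in DMSO (log2 fold change 0.25, SE 0.07, adjusted p = 0.0220), but on leaving out any 1 of these 4 libraries it no longer passed (adjusted p 0.0535 to 0.411). With 2 µM its libraries overlapped those of DMSO (log2 fold change 0.05, interval -0.11 to 0.21). *Trib3* had 25.5 and 25.3 CPM with 1 µM and 26.1 and 21.96 CPM with 2 µM, against 32.2 and 29.0 CPM in DMSO, and did not pass (log2 fold changes -0.27 and -0.33). None of the 5 genes passed the test between 2 µM and 1 µM with edgeR, which called 11 of all genes, or 0.0715%, with 0.0455% higher and 0.026% lower (1194 at an unadjusted p under 0.05, and 58 called by DESeq2). At an unadjusted p under 0.05 *Asns* (-0.20), *Psat1* (-0.14) and *Slc7a11* (-0.20) were lower with 2 µM.

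Of the 73 list genes in this set labelled 4T1, 24 fell and 2 rose with 1 µM TAK901 (median -0.17, against 0.00 for all genes). With 2 µM, 36 fell and 4 rose (median -0.26, against -0.02). Over all genes tested 5.17% fell and 3.97% rose with 1 µM, and 9.28% fell and 5.63% rose with 2 µM. Total-count scaling turned the split over all genes to 746 higher and 640 lower with 1 µM, beside 611 and 795, and to 1172 higher and 1008 lower with 2 µM, beside 865 and 1427. The one-carbon list fell in 5 of 7 genes with 1 µM and in 7 of 7 with 2 µM (medians -0.36 and -0.53). *Psph* fell by 0.49 with 1 µM and by 0.62 with 2 µM, and *Phgdh* by 0.39 with 1 µM. The synthetases fell in 11 of 20 and 15 of 20 genes (medians -0.20 and -0.31), with *Mars* at -0.32 and -0.51. Of the other targets *Stc2* rose at both doses (0.49 and 0.68), and *Eif4ebp1*, a translation repressor, fell at both (-0.32 and -0.39). Of 10 NRF2 targets 2 rose and 1 fell with 1 µM (median 0.05), and 4 rose and 1 fell with 2 µM (median -0.01). The pentose phosphate enzyme *G6pdx* rose most (0.96 and 0.95), and *Txnrd1*, thioredoxin reductase, fell (-0.22 and -0.40).

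Ordered by mean level in the set of 4T1 libraries with ENMD-2076, *Trib3* and *Slc7a11* were highest in DMSO, then with 1.25 µM and then with 2.5 µM. *Asns* and *Atf4* were highest in DMSO, then with 2.5 µM and then with 1.25 µM, and *Psat1* was highest with 2.5 µM and lowest with 1.25 µM. With TMM no neighbours in these orders overlapped in their libraries, but the difference of *Atf4* between the doses did not pass the test. The share of all genes without overlap was not counted. With total-count scaling *Atf4* stood at 96.3 and 97.8 CPM with 2.5 µM, below its 122 and 119 CPM with 1.25 µM. *Psat1* with 2.5 µM (507 and 472 CPM) then overlapped DMSO (496 and 483 CPM). In MDA-MB-231, *ASNS* and *PSAT1* were highest with 2.5 µM ENMD-2076, then with 5 µM, DMSO, 1 µM TAK901 and 2 µM TAK901. *ATF4*, *TRIB3* and *SLC7A11* were highest with 5 µM ENMD-2076, and next with 2.5 µM. Neighbours overlapped in their libraries for *TRIB3* throughout, except between 2.5 µM ENMD-2076 and DMSO. For *ASNS* and *SLC7A11* the TAK901 doses overlapped, and for *ATF4* TAK901 at 2 µM overlapped DMSO.

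Across the 12 4T1 libraries the log2 CPM of *Trib3* and *Slc7a11*, centred on the DMSO of their set, had a Pearson r of 0.99, whereas *Psat1* and *Slc7a11* had an r of 0.21. In the 10 MDA-MB-231 libraries the lowest r between any pair was 0.66, for *PSAT1* with *SLC7A11*, and the highest 0.95, for *TRIB3* with *ATF4*. Among 13032 other genes at a mean of 1 CPM or more, those most like the mean of the 5 in 4T1 were *Cdc25b*, *Syne3*, *Errfi1*, *Prrx1* and *Angptl2* (r of 0.99 to 1.00). In MDA-MB-231 they were led by ENSG00000140105.13 and ENSG00000140044.8 (r of 0.99 each), among 13298 genes. These values describe libraries that share groups and scaling, and carry no test.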

How the data were processed

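The 22 libraries are bulk RNA sequencing. For each, the authors deposited raw counts of reads by gene. Per the submitters' processing notes, the builds were hg38 and mm10 and the tools included HTSeq, TopHat, Bowtie, DESeq2 and FastQC 0.11.3. The sources used here do not give their roles, other versions, annotation, counting strand or the treatment of reads with several alignments, so genes with overlapping, antisense or pseudogene copies are uncertain. HTSeq summary lines, present in the tables with TAK901 and DMSO 3 and 4, were removed (as percent of all records, unaligned reads were 16.4 to 40.1, reads with several alignments 8.27 to 12.0, those outside any gene 5.51 to 7.63, ambiguous ones 1.82 to 2.50 and low-quality ones 1.61 to 2.17). Of 38924 4T1 IDs 37607 matched a GENCODE M21 symbol. No human name table was used, so only the 5 given IDs were named and lists and markers were not analysed in MDA-MB-231.

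Counts were tested with edgeR 4.0.16 in R 4.3.3: filterByExpr, TMM, and a quasi-likelihood fit of all libraries of a line with 1 mean per group, with DMSO 1 and 2 and DMSO 3 and 4 of 4T1 as separate groups. P-values were two-sided and Benjamini-Hochberg adjusted over all genes tested, with a threshold of 0.05. Each SE is the absolute log2 fold change divided by the root of F. The fit was tested on simulated data. The members and lists were chosen with earlier results of these data known. Named genes were the 5 members and, per list and comparison, up to 2 with the largest rise and up to 2 with the largest fall past the threshold. Genes so named in 1 comparison may have their levels given in another. Likeness used log2 CPM with a prior count of 2. Alternatives were DESeq2 size factors, total-count scaling, no filter, DESeq2 1.42.0, only the groups compared, each library left out, the replicate block, the own set of 4T1 libraries and no MDA-MB-231 TAK901 2 µM libraries. No duplicate libraries were found within groups (chi-square per degree of freedom 2.39 to 54.2). Between groups the lowest values were 2.28 and 2.34, for replicates 1 and 2 of 4T1 with 1 µM TAK901 against replicate 2 with 2 µM. These libraries were thus as alike as those within a group.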

Additional observations from a re-analysis of the deposited data

Results flagged for a closer look

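The treatment labels give 2.5 µM ENMD-2076 to both lines. At this dose 4 of the 5 genes had both treated libraries above both DMSO libraries in MDA-MB-231 and below both in 4T1. How many of all genes lay so was not counted. Of all genes tested, 0.519% were called higher in MDA-MB-231 and 37.1% were called lower in 4T1. The MDA-MB-231 log2 fold change minus the 4T1 log2 fold change was 2.08 for *ATF4* (0.50 and -1.58), 5.97 for *TRIB3* (0.74 and -5.23), 3.44 for *ASNS* (1.79 and -1.66) and 5.77 for *SLC7A11* (1.16 and -4.61). The differences between the lines were not tested, since the lines are of different species and their counts come from separate tables. In MDA-MB-231 *ATF4* and *TRIB3* did not pass the threshold at this dose.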

How the results depend on the processing

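Of 60 results for single members 32 were past the threshold, 24 of these kept their call and direction under every alternative run, and none reversed. The 5 falls with 1.25 µM ENMD-2076 in 4T1 and the rises of *ASNS*, *PSAT1* and *SLC7A11* with ENMD-2076 in MDA-MB-231 are among the 24. With 2.5 µM ENMD-2076 in MDA-MB-231 the count of members called was 3 and became 5 without the filter, with only the groups compared and without both TAK901 2 µM libraries (3 to 5 on leaving out 1 library). In that order of fits 1.04%, 5.96% and 6.59% of all genes were called, beside 0.607%. Between 5 and 2.5 µM the share was 4.96% with only the groups compared and 0.408% without both TAK901 2 µM libraries, beside 0.0135%. The count of members called there was 0 and became 1 in both fits. With TAK901 at 2 µM it was 2 and became 1 with only the groups compared, where 16.8% of all genes were called, beside 31.2%. Between 2 and 1 µM it was 0 and became 1 with total-count scaling, no filter, DESeq2 and the replicate block. In that order of fits 3.32%, 5.37%, 8.02% and 5.36% of all genes were called, beside 3.74%. On leaving out 1 library the log2 fold change of *SLC7A11* ranged from 0.44 to 0.70 with 1 µM TAK901 and from 0.18 to 0.59 with 2 µM. Between these doses that of *PSAT1* ranged from -0.61 to -0.31. In the TAK901 set labelled 4T1 the ranges with 1 µM were -0.30 to -0.25 for *Atf4* and 0.19 to 0.32 for *Slc7a11*. Calls were gained or lost in some of these fits.

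Values near 0 changed sign. The log2 fold change of *ATF4* with 2 µM TAK901 was -0.0043 with DESeq2 size factors, -0.016 without the filter, -0.0072 with DESeq2, -0.0065 with only the groups compared and -0.0060 with the replicate block, and -0.28 to 0.23 on leaving out 1 library. That of *Atf4* between the 4T1 ENMD-2076 doses was -0.31 with total-count scaling. On leaving out 1 library, *TRIB3* ranged from -0.54 to 0.12 with 1 µM TAK901, from -0.58 to 0.17 with 2 µM and from -0.11 to 0.17 between the ENMD-2076 doses. Between the TAK901 doses in MDA-MB-231 *ATF4* ranged from -0.089 to 0.42, *TRIB3* from -0.35 to 0.37, *ASNS* from -0.29 to 0.068 and *SLC7A11* from -0.40 to 0.0083. In 4T1 *Slc7a11* with 2 µM TAK901 ranged from -0.017 to 0.12, and *Trib3* between the TAK901 doses from -0.20 to 0.038. The cause of these changes was not tested.

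Libraries with equal replicate numbers deviated together little (correlation -0.0213 to 0.106 in MDA-MB-231 and -0.0129 to 0.0196 in the 4T1 set with ENMD-2076). With 2 libraries a group this cannot settle whether the numbers pair libraries. With the replicate block *TRIB3* passed with 5 µM ENMD-2076 (log2 fold change 0.82, adjusted p = 0.0244). DMSO 3 and 4 share no number with the TAK901 libraries, so no block could be fitted there. With 2 libraries a group, and 6.00 and 3.75 M reads in 4T1 TAK901 at 2 µM, small differences are the least certain. Where a library left out leaves 1 in a group, that library is assumed to vary like the other groups.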

Other observations

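Before any compound, the DMSO libraries of the 2 4T1 sets stood at different levels of all 5 genes. DMSO 3 and 4 had 32.2 and 29.0 CPM of *Trib3* and 117 and 111 CPM of *Asns*, against 129.6 and 132 CPM and 403 and 387 CPM in DMSO 1 and 2. *Psat1* stood at 299.7 and 299 CPM, against 498 and 489 CPM, and *Atf4* at 279 and 271 CPM, against 385 and 365 CPM. *Slc7a11* lay the other way, at 136 and 149 CPM in DMSO 3 and 4, against 64.2 and 56.2 CPM in DMSO 1 and 2. *Aldh1l2*, at 52.5 and 54.6 CPM in DMSO 3 and 4, stood at 2.87 and 2.18 CPM in DMSO 1 and 2. These are levels side by side: the sets were not compared by a test here.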
